A study of Mus musculus with 6 samples.

Results

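The inflammasome genes of murine bone marrow–derived macrophages (BMDMs) were followed through LPS stimulation with and without inhibition of the deubiquitinase USP7. The 8 genes were taken by name from the annotation of the array: the sensors *Nlrp3*, *Nlrc4*, *Aim2*, and *Nlrp1b*, the adaptor *Pycard*, the caspases *Casp1* and *Casp4*, and the pore-forming effector *Gsdmd*. All 8 were found among 34787 gene names, with 11 of 55681 probes and 20 of 59305 spots. Wild-type BMDMs from female C57BL/6 mice aged 6 to 8 weeks per the labels, where the study's methods give another age range, had been differentiated for 7 days in L929-conditioned medium. Untreated cells were compared with cells given LPS for 4 h and with cells given 10 μM of the USP7 inhibitor HBX41,108 for 30 min and then LPS (LPS+USP7i). The LPS dose is 100 ng/ml in the description of the series, whereas the treatment label gives the same number per μl. No source used here says whether cells without inhibitor were given its solvent, and the effect of the inhibitor cannot be told apart from that of its solvent. Each group had 2 arrays, from independent experiments, and so few arrays limit how precise any value can be.

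An inflammasome is a cytosolic complex in which a sensor recruits, directly or through the adaptor ASC, the protease caspase-1. Caspase-1 matures the cytokines IL-1β and IL-18 and cleaves gasdermin D, whose freed fragment opens pores in the plasma membrane and causes pyroptosis. In the noncanonical arm, caspase-11 senses cytosolic LPS itself and cleaves gasdermin D. In macrophages, a priming signal such as LPS at TLR4 raises the transcripts of some of these components before a separate signal assembles the complex. The arrays measure transcripts only, so neither assembly, caspase cleavage, nor cytokine release was measured.

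Values are log2 signals after quantile normalization, and a difference of 1 on this scale is a doubling. A difference was called when the adjusted p value from limma, over 55680 probes and with the 3 groups in 1 fit, was under 0.05. A gene with several probes was counted by its brightest probe. Because a probe's signal also depends on its sequence, levels of the 8 genes were not set against each other, and the marker sums below, which add signals of different probes, do not rank transcripts. Each probe is 60 bases long. Sequences are shown for 1 probe of each of 4 genes that differ in their response. For *Nlrp3* and *Nlrp1b* this is the dimmer probe. For *Nlrp3* its values follow those of the brightest. For *Nlrp1b* it gives only a bound with LPS, and its calls with LPS+USP7i differed from those of the brightest. Positions are in mm9, for *Nlrp3* the dimmer of its probes (chr11:59378554-59378613, plus strand), for *Nlrp1b* the dimmer of its probes (chr11:71030377-71030436, minus strand), for *Pycard* its probe (chr7:135136241-135136300, minus strand), and for *Gsdmd* its probe (chr15:75697536-75697595, plus strand). Each is given with the gene that the array's annotation names, and no exon annotation of this build was used.
Nlrp3: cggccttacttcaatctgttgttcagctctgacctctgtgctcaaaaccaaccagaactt
Nlrp1b: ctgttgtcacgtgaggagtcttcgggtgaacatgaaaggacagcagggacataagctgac
Pycard: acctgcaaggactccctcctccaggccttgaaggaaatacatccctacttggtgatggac
Gsdmd: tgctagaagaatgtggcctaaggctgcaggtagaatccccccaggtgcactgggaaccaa

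Macrophage identity was read from 8 markers, all well above background on all 6 arrays. On a linear scale they summed to 729300 and 721300 on the untreated arrays, to 723600 and 748500 on the LPS arrays, and to 628200 and 587500 on the LPS+USP7i arrays. The brightest of these probes was that of *Csf1r*, the receptor for the growth factor that maintains macrophages, on 5 arrays and that of *Cd68* on the other. With LPS *Itgam* was called lower (log2 difference −0.657, adjusted p = 0.0233), *Cd14* was called higher, and 6 were not called. In LPS+USP7i compared with untreated cells *Fcgr1* was called lower (−1.261, adjusted p = 0.0374) and 7 were not called. Over all genes 7.98% were called higher and 12.8% lower with LPS, and 8.71% lower in LPS+USP7i compared with untreated cells. These single marker calls are to be read beside those shares. The 7 neutrophil markers, 5 of them well above background on all arrays, summed to 5041 and 5268 on the untreated arrays, 5126 and 6483 on the LPS arrays, and 5879 and 6749 on the LPS+USP7i arrays, with the *Elane* probe the brightest. Their median log2 difference was 0.464 with LPS and −0.633 with LPS+USP7i compared with LPS, while *Elane* differed by 0.617 in the latter (not called, adjusted p = 0.0863), so the higher sums there do not describe the list. *Elane*, *Camp*, *Ltf*, *Ngp*, and *S100a8* were higher on replicate 2 in each group, and *Mpo* and *Ly6g* on replicate 1. *Ltf*, not well above background on all arrays, read 4.16 and 6.16, 3.15 and 7.89, and 3.33 and 7.48. *Mpo* read 8.39 and 6.45, 8.65 and 6.67, and 6.49 and 4.84. The 5 B cell markers, 2 of them above background throughout, summed to 1057 and 668.5, to 1153 and 532.7, and to 715 and 314.6 in that order, with the *Cd79b* probe the brightest, so that replicate 1 was higher in each group. Among these 12 genes LPS changed 0 (limma, 1 at an unadjusted p under 0.05), and *Pax5*, which was not well above background on the LPS arrays, was called higher with LPS+USP7i than with LPS (at least 1.39-fold). Of 5 T and NK cell markers 2 were above background on all arrays and *Cd3g* and *Cd8a* on none. Of 4 dendritic cell markers *Siglech* was on all and *Flt3* and *Xcr1* on none, and *Zbtb46* rose with LPS. Of 3 stromal markers *Col1a1* was on none and *Pdgfrb* rose with LPS to 8.89 on both arrays and read 3.02 and 5.22 with LPS+USP7i (difference from LPS −4.773, not called, adjusted p = 0.064), and of 3 erythroid markers 0 were on all arrays and 2, *Hbb-bt* among them, on none.

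With LPS, sensor transcripts moved in different directions. *Nlrp3*, whose protein responds to potassium efflux and membrane damage, was dim in untreated cells and had the largest rise of the 8 genes, in the 16 other settings tried as well. Its brightest probe read 5.21 and 5.66 on the untreated arrays, 10.71 and 10.24 on the LPS arrays, and 10.29 and 10.12 on the LPS+USP7i arrays. Both LPS arrays lay far above both untreated arrays, a 33-fold difference (log2 difference 5.04, SE 0.24, adjusted p = 0.00324). The other probe gave 4.75 and 4.79, 9.46 and 8.72, and 8.89 and 8.81, a 19.9-fold rise (adjusted p = 0.00429). Both probes thus put *Nlrp3* higher on each LPS array than on either untreated array.

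*Aim2*, a sensor of cytosolic double-stranded DNA and a product of the interferon response, read 7.33 and 7.40 on the untreated arrays, 9.42 and 9.75 on the LPS arrays, and 7.16 and 8.03 on the LPS+USP7i arrays. It rose 4.66-fold with LPS (log2 difference 2.22, SE 0.33, adjusted p = 0.0218). *Nlrc4*, which together with NAIP proteins responds to bacterial flagellin and secretion systems, read 8.14 and 7.85, 7.82 and 8.10, and 8.15 and 8.22. The untreated and LPS arrays overlapped, and the difference of −0.03 had a 95% confidence interval from −0.45 to 0.39 (adjusted p = 0.972).

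*Nlrp1b*, a sensor that is activated when its N terminus is degraded, was the gene of the 8 that fell. Its brightest probe read 9.88 and 9.78 on the untreated arrays, 7.26 and 6.83 on the LPS arrays, and 8.31 and 7.70 on the LPS+USP7i arrays. The 6.88-fold decrease with LPS (log2 difference −2.78, SE 0.27, adjusted p = 0.00852) separated all arrays of the groups. The other probe read 6.27 and 5.82 on the untreated arrays, 2.09 and 2.21 on the LPS arrays, and 5.54 and 5.71 on the LPS+USP7i arrays. On the 2 LPS arrays it did not stand clear of background (0 of 2), so the change is a bound, at least 2.94-fold lower in the main processing (adjusted p = 0.00319). With normexp background correction the log2 difference of this probe was −0.914, a smaller change than that bound. Such bounds set the dim group at the higher of its own signal and the lowest signal among probes well above background on the same array.

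*Pycard*, which encodes the adaptor ASC, read 14.17 and 14.26 on the untreated arrays, 14.16 and 14.01 on the LPS arrays, and 12.54 and 12.93 on the LPS+USP7i arrays. The difference between untreated and LPS cells was not called (log2 difference −0.13, SE 0.16, 95% confidence interval −0.57 to 0.31, adjusted p = 0.716). With LPS+USP7i both arrays were lower than all 4 others.

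*Casp1* read 14.15 and 14.13 on the untreated arrays, 15.46 and 15.38 on the LPS arrays, and 14.82 and 15.02 on the LPS+USP7i arrays. The 3 groups did not overlap, and the rise with LPS was 2.44-fold (log2 difference 1.29, SE 0.095, adjusted p = 0.00534). *Casp4*, the mouse gene for caspase-11, read 12.09 and 11.56, 15.26 and 15.07, and 14.06 and 14.18, and rose 10.1-fold (log2 difference 3.34, SE 0.21, adjusted p = 0.00430). Its other probe shares 55 of 60 bases with the brightest one and is therefore no independent measurement. It rose by 3.37 (adjusted p = 0.00295).

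*Gsdmd* was spotted 10 times on each array, and the SD over these spots was between 0.025 and 0.091 on the log2 scale. Its probe read 12.50 and 12.28 on the untreated arrays, 13.41 and 13.11 on the LPS arrays, and 12.32 and 12.23 on the LPS+USP7i arrays. The LPS arrays were the highest, and the rise of 1.83-fold (log2 difference 0.87, SE 0.14, adjusted p = 0.0272) was larger than the spread between replicates.

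**Figure D1:**
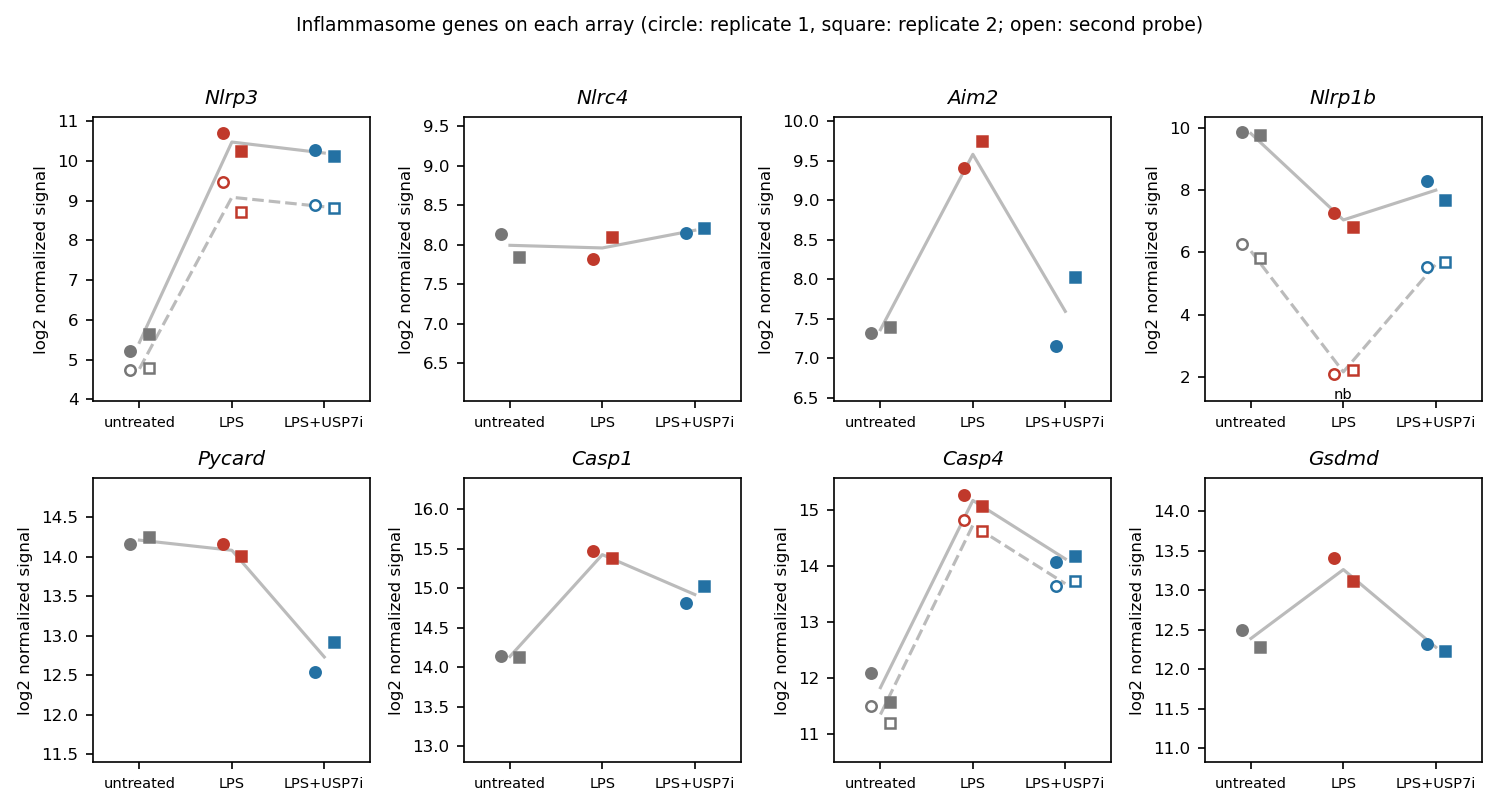
Log2 normalized signal (vertical axis) of the 8 inflammasome genes on each of the 6 arrays in untreated, LPS, and LPS+USP7i cells; circles are replicate 1, squares replicate 2, open symbols the dimmer probe of a gene, lines join group means, and nb marks a group not well above background on either array. *Nlrp3*, *Aim2*, *Casp1*, *Casp4*, and *Gsdmd* were higher and *Nlrp1b* lower with LPS, and *Pycard* was lower with LPS+USP7i, between 12.54 and 12.93.

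In LPS compared with untreated cells, 5 of the 8 genes were higher (*Nlrp3*, *Aim2*, *Casp1*, *Casp4*, and *Gsdmd*), 1 was lower (*Nlrp1b*), and 2 were not called (*Nlrc4* and *Pycard*). Among all 34786 genes tested, 7.98% were called higher and 12.8% lower in the same fit. The median log2 difference of the 8 genes was 1.08, against 0.0016 over all genes. Over the 11 probes, 7 were higher, 2 lower, and 2 not called. With scaling to the 75th percentile in place of quantile normalization, the median of all genes moved to 0.403, with 12150 genes called higher and 4048 lower, against 2775 and 4443. The same 6 members were called under that scaling, and the difference of *Pycard* turned to 0.44 (adjusted p = 0.149), close to that median.

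With 1 array left out, the LPS differences stayed between 2.051 and 2.387 for *Aim2*, 0.724 and 1.02 for *Gsdmd*, and −2.998 and −2.566 for *Nlrp1b*, while some of their calls were lost. Over the whole array, 1378 genes were then called higher and 2013 lower without untreated replicate 1, and 1138 and 1644 without untreated replicate 2, fewer than the 2775 and 4443 with all arrays. Without untreated replicate 1 or untreated replicate 2, only *Nlrp3*, *Casp1*, and *Casp4* were called higher and 0 genes lower (limma; 1 at an unadjusted p under 0.05), and without LPS replicate 1 the same 3 genes were higher and *Nlrp1b* lower; *Gsdmd* was not called either without LPS+USP7i replicate 1 or 2, nor *Aim2* without LPS replicate 2.

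Promoters of 7 of the 8 genes were matched in RefSeq (GRCm38.p6), 10 windows in all, each from 250 bases before to 50 after a start site. They are shown for genes that rose together with LPS. Both strands were searched for a κB-like motif (GGGNNNNNCC), an ISRE-like motif (TTTCNNTTTC), and a GAS-like motif (TTCNNNGAA). The κB-like motif stood in 50.8% of all 32851 windows of this length, the ISRE-like motif in 3.44%, and the GAS-like motif in 8.3%. Among the members, *Nlrp3*, *Casp1*, and *Casp4* had κB-like matches in every one of their windows, and *Nlrc4*, *Aim2*, *Nlrp1b*, and *Pycard* had 0, which makes 5 of the 10 windows, about the share among all windows. The *Casp4* windows, which start at 5308599 and 5308610 on chr9, overlap and hold the same matches, so they are not independent. The ISRE-like and GAS-like letters were in 0 of the 10 windows. The upstream 250 bases of *Casp4* (chr9:5308599-5308848), *Nlrp3* (chr11:59541319-59541568), *Casp1* (chr9:5298267-5298516), and *Aim2* (chr1:173420354-173420603), all on the plus strand, follow with κB-like matches in capitals.
Casp4: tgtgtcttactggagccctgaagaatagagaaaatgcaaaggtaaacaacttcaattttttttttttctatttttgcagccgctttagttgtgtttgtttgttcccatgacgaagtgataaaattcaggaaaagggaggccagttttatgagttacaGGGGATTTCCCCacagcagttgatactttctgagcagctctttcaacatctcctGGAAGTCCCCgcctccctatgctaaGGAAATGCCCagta
Nlrp3: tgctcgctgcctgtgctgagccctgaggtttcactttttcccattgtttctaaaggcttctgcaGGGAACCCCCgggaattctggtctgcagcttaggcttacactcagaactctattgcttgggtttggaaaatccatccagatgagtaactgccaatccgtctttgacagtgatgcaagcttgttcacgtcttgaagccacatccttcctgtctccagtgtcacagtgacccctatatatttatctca
Casp1: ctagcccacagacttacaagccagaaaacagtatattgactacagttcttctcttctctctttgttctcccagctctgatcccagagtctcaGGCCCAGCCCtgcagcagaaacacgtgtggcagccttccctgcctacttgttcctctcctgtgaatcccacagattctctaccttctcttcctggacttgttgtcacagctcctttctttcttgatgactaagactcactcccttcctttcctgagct
Aim2: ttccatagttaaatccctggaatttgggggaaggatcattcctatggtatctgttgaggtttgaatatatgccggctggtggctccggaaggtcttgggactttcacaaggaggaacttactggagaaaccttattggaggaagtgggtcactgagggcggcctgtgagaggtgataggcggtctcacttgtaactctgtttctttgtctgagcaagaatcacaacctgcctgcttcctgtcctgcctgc
In *Casp4*, 4 overlapping matches, 2 on each strand, begin with GGGGATTTCC at position −93, and 2 further matches lie at −39 and −14. A match is a description of letters, and its use in these cells was not measured.

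In LPS+USP7i compared with LPS, *Aim2*, *Pycard*, and *Gsdmd* fell, 0 of the 8 genes were called higher (limma; 1, *Nlrp1b*, at an unadjusted p under 0.05), and 5 were not called. Among all genes tested, 4.27% were called lower and 5.52% higher. The median log2 difference of the 8 genes was −0.74, against 0.00092 over all genes. An unadjusted p under 0.05 (limma) was found for 6 of the 8, and for 9049 of all 34786 genes tested. Over the 11 probes, 4 were lower, 1 higher, and 6 not called.

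*Pycard* fell 2.55-fold (log2 difference −1.35, SE 0.16, adjusted p = 0.0256), and the LPS+USP7i arrays of this adaptor were below the untreated arrays too. *Aim2* fell 3.96-fold (log2 difference −1.99, SE 0.33, adjusted p = 0.0471), and one of its LPS+USP7i arrays, 7.16, lay below both untreated arrays while the other, 8.03, lay above them. *Gsdmd* fell 1.98-fold (log2 difference −0.98, SE 0.14, adjusted p = 0.0364), and both LPS+USP7i arrays were within the range of the untreated arrays or just below it.

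The caspases were lower on both LPS+USP7i arrays than on both LPS arrays but were not called by their brightest probes. For *Casp1* the difference was −0.51 (95% confidence interval −0.77 to −0.24, adjusted p = 0.0592), and for *Casp4* it was −1.04 (−1.62 to −0.46, adjusted p = 0.0673). The overlapping *Casp4* probe, with the same difference and a smaller SE, was called lower (adjusted p = 0.0313). For *Nlrp3* the difference was −0.28 with an interval from −0.94 to 0.39 (adjusted p = 0.605), and the LPS+USP7i arrays overlapped the LPS arrays. For *Nlrc4* it was 0.22, with an interval from −0.20 to 0.64 (adjusted p = 0.546). The brightest probe of *Nlrp1b* was 0.96 higher (0.21 to 1.70, adjusted p = 0.133), and its dimmer probe was called higher, at least 2.2-fold (adjusted p = 0.0110). With normexp background correction the difference of the dimmer probe was 0.761, below that bound.

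**Figure D2:**
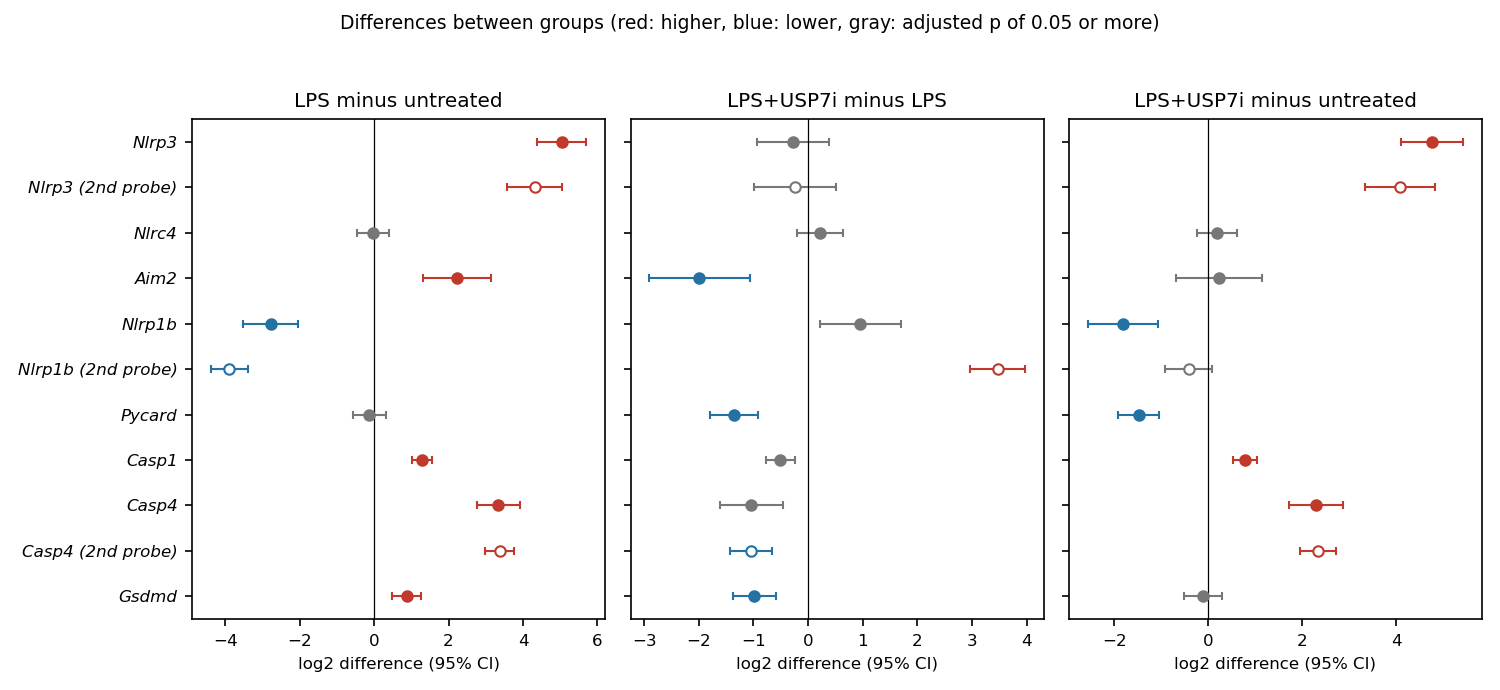
Log2 difference (horizontal axis) with its unadjusted 95% confidence interval for each of the 11 probes in LPS minus untreated, LPS+USP7i minus LPS, and LPS+USP7i minus untreated, 2 arrays per group; red is called higher, blue called lower, gray not called, and open symbols the dimmer probe of a gene, which for *Nlrp1b* was not well above background with LPS. With the inhibitor *Pycard* (−1.35), *Aim2* (−1.99), and *Gsdmd* (−0.98) were lower, while *Nlrp3* (−0.28) was not called.

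These inhibitor calls were close to the threshold. With the replicate number as a block, *Gsdmd* was called lower and *Pycard* and *Aim2* were not. With only the LPS and LPS+USP7i arrays in the fit, or without untreated replicate 1, untreated replicate 2, LPS replicate 1, or LPS replicate 2, 0 of the 8 genes were called lower (limma; 5 at an unadjusted p under 0.05). In the first 3 of these settings 0 genes of the whole array were called lower (limma; at least 3673 at an unadjusted p under 0.05), so the members could not be, and in the others 791 and 700 were. With each array left out the differences of *Pycard* stayed between −1.544 and −1.156, those of *Aim2* between −2.421 and −1.553, and those of *Gsdmd* between −1.131 and −0.835. Without LPS+USP7i replicate 1 only *Pycard* was, and with normexp background correction or with dim probes left out 5 genes were, *Casp1* and *Casp4* among them. Of the 8 macrophage markers, *Fcgr1* and *Cd14* were also lower with LPS+USP7i than with LPS alone (log2 differences −1.60 and −1.31, adjusted p = 0.0317 and 0.0184), and 6 were not called, with differences of −1.196 for *Mertk*, −0.565 for *Adgre1*, −0.221 for *Csf1r*, 0.15 for *Lyz2*, 0.165 for *Cd68*, and 0.312 for *Itgam* (median of the 8 −0.393). Over all genes 4.27% were called lower in that comparison. The summed marker signal, lower on both LPS+USP7i arrays, includes *Cd14*, which LPS had raised by 1.69 (adjusted p = 0.00518); the part of the markers in these differences was not tested, and in such bulk samples fewer cells of a type and less RNA per cell cannot be told apart.

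**Figure D3:**
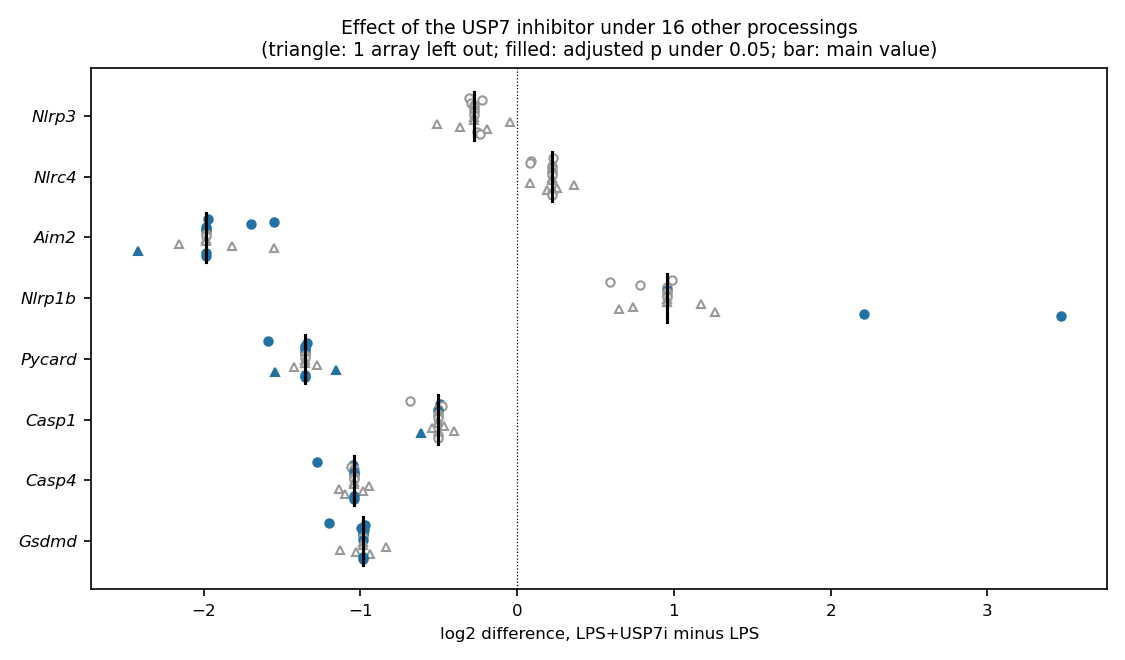
Log2 difference between LPS+USP7i and LPS (horizontal axis) of each gene under 16 other ways of processing the arrays; triangles leave out 1 array, circles are the other settings, filled symbols have an adjusted p under 0.05, and the bar is the value in the text. Each gene stayed on its side of 0, and the values of *Nlrp1b* furthest to the right (up to 3.47) come from including its dimmer probe, which was not well above background with LPS, so that they are fitted values where only a bound holds.

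In LPS+USP7i compared with untreated cells, which shares arrays with both comparisons above, *Nlrp3*, *Casp1*, and *Casp4* were higher, *Nlrp1b* and *Pycard* were lower, and 3 genes were not called. Of all genes tested, 6.16% were called higher and 8.71% lower. *Nlrp3* remained 4.77 above untreated cells (SE 0.24, adjusted p = 0.00552), *Casp4* 2.30 (SE 0.21, adjusted p = 0.0110), and *Casp1* 0.78 (SE 0.095, adjusted p = 0.0180). *Pycard* was below its untreated level (difference −1.48, SE 0.16, adjusted p = 0.0144), and so was *Nlrp1b* by its brightest probe (difference −1.82, SE 0.27, adjusted p = 0.0270), while its dimmer probe was not called (difference −0.42, adjusted p = 0.272). For *Aim2* and *Gsdmd* the differences were 0.23 (95% confidence interval −0.69 to 1.15) and −0.11 (−0.51 to 0.29). As a share of the log2 difference that LPS had made, 94.5% remained for *Nlrp3*, 68.8% for *Casp4*, 65.6% for the brightest probe of *Nlrp1b*, 60.8% for *Casp1*, 10.5% for *Aim2*, and −12.6% for *Gsdmd*, and differences between genes in this share were not tested. The dimmer *Nlrp1b* probe, with only a bound for LPS, gives no such share and differed less from untreated cells (−0.42). The median of the 8 genes was 0.21, against −0.0021 over all genes.

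With 75th percentile scaling the median of all genes in this comparison moved to 0.437, with 12182 genes called higher and 3354 lower against 2144 and 3031, and *Gsdmd* turned to 0.10, below that median. Without untreated replicate 1 or 2, *Nlrp3* and *Casp4* were the genes called higher and 0 were called lower (limma; 2 at an unadjusted p under 0.05), *Casp1* was not called without LPS replicate 1 or 2 either, *Nlrp1b* was called only without LPS+USP7i replicate 1, and *Aim2* turned to −0.20 without LPS+USP7i replicate 2.

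Genes of the IL-1 and IL-18 cytokines and their inhibitors rose together with LPS. Of these 5 genes, which include *Il1a* beside the caspase-1 substrates, 5 rose with LPS (median log2 difference 2.66) and 2 fell with the inhibitor (median −2.65). The shares over all genes were 7.98% called higher with LPS and 4.27% called lower with the inhibitor. *Il1b*, the precursor of IL-1β, read 6.34 and 4.94 on the untreated arrays, 15.49 and 15.85 on the LPS arrays, and 11.12 and 12.59 on the LPS+USP7i arrays. It rose by 10.03 (SE 0.73, adjusted p = 0.00520) with LPS, and the difference of −3.82 with the inhibitor was not called (SE 0.73, adjusted p = 0.0607), although its groups did not overlap and it was called lower in 5 of 15 other settings (adjusted p from 0.00323 to 0.196). *Il18* read 9.09 and 9.27, 11.73 and 11.94, and 8.74 and 9.57 in the same order. It rose by 2.66 (adjusted p = 0.0126) and fell by 2.68 (difference −2.68, adjusted p = 0.0253), which left the LPS+USP7i arrays around the untreated ones. *Il1a*, not well above background in untreated cells, rose at least 139-fold in the main processing (adjusted p = 0.00317) and was 6.27-fold lower with the inhibitor (adjusted p = 0.0299). With normexp background correction the log2 difference of *Il1a* with LPS was 4.525, below that bound. *Il1rn*, the IL-1 receptor antagonist, rose with LPS (log2 difference 2.04, adjusted p = 0.0463) and differed by 0.40 with the inhibitor, which was not called.

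Of 13 genes of the noncanonical arm and its interferon inputs, 10 rose with LPS and 1, the LPS receptor *Tlr4*, fell (median 3.90). Over all genes 7.98% were called higher and 12.8% lower with LPS, and the 1 gene that fell is to be read beside this share. With the inhibitor 8 of the 13 were lower and 0 higher (median −1.47, limma), against 4.27% lower and 5.52% higher over all genes. The largest rises were those of *Gbp5*, from 7.26 and 6.36 to 15.78 and 15.85, *Ifnb1*, from 4.80 and 4.34 to 12.01 and 12.85, and *Gbp2*, from 10.14 and 9.42 to 16.20 and 16.08, with adjusted p values of 0.00311, 0.00317, and 0.00425. *Ifnb1* encodes interferon β, and 1 of its 2 untreated arrays was well above background. The guanylate-binding proteins coat cytosolic bacteria and LPS and promote caspase-11 activation. With the inhibitor *Gbp2* fell to 13.36 and 14.20 (log2 difference −2.36, adjusted p = 0.0471), *Gbp7* by 2.05 (difference −2.05, adjusted p = 0.0318; −0.818 with the mean of its probes), and *Gm12250*, which is Irgb10 in the RefSeq synonyms and acts with them at bacterial membranes, by 1.84 (difference −1.84, adjusted p = 0.0485). *Ifnb1* itself was 12.87 and 12.52 with LPS+USP7i, within the range of the LPS arrays or just above it, and was not called (difference 0.26, 95% confidence interval −0.73 to 1.26). *Irf2*, a transcription factor known to drive *Gsdmd*, rose with LPS from 10.17 and 10.28 to 11.53 and 11.42 (adjusted p = 0.0481) and fell to 9.59 and 10.30 with the inhibitor (difference −1.53, adjusted p = 0.0492).

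Of 15 genes that control NLRP3 activation and licensing, 5 fell and 1 rose with LPS (median −0.27), and 5 rose and 0 fell with the inhibitor (median 0.032, limma). Over all genes 12.8% were called lower and 7.98% higher with LPS, and 5.52% higher and 4.27% lower with the inhibitor. The 1 gene that rose with LPS is to be read beside these shares. *P2rx7*, the ATP-gated channel that triggers NLRP3, fell from 12.11 and 12.07 to 10.01 and 10.11 with LPS (difference −2.04, SE 0.063, adjusted p = 0.00252; −0.979 with the mean of its probes) and read 9.77 and 9.76 with LPS+USP7i. *Txnip*, a thioredoxin-binding protein linked to NLRP3, fell by 1.91 (difference −1.91, adjusted p = 0.0125). *Usp47*, a deubiquitinase related to USP7, rose by 1.56 (adjusted p = 0.00824). *Panx1*, a large-pore membrane channel, read 13.85 and 14.21 with LPS+USP7i, above both its LPS values of 11.39 and 11.21 and its untreated values of 12.42 and 12.03 (inhibitor difference 2.73, SE 0.20, adjusted p = 0.0144). *Ptpn22* and *Pstpip1* rose with the inhibitor by 1.28 and 0.92 (adjusted p = 0.0212 and 0.0161), as did the chaperone *Hsp90ab1*. *Nek7*, the kinase that licenses NLRP3, was not called with LPS (−0.27, adjusted p = 0.156) or with the inhibitor (−0.22, adjusted p = 0.294). *Usp7*, the gene of the inhibited enzyme, was not called either (0.44 with LPS, adjusted p = 0.104, and −0.14 with the inhibitor, adjusted p = 0.627), but in 5 of 15 other settings it was called higher with LPS (values from 0.165 to 0.796).

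Of 10 cell death genes around the inflammasome, 6 rose and 1 fell with LPS (median 0.71), and with the inhibitor 2 rose and 2 fell (median −0.14). The nucleic acid sensor *Zbp1* rose by 2.70 and the necroptosis effector *Mlkl* by 2.45 with LPS (adjusted p = 0.0137 and 0.0122). *Casp8*, the initiator caspase of death receptors, fell with the inhibitor from 12.77 and 12.62 to 11.49 and 11.72 (adjusted p = 0.0215). *Ripk3*, the kinase that activates MLKL, was 10.78 and 11.03 with LPS and rose to 11.92 and 11.88 (adjusted p = 0.0386). Of 9 other sensors, 1 rose with LPS, *Mefv*, which encodes pyrin, from 9.77 and 8.14 to 13.07 and 12.46 (adjusted p = 0.0263), and 0 were called with the inhibitor (limma; 2 at an unadjusted p under 0.05). Over all genes 7.98% were higher and 12.8% lower with LPS, and 5.52% higher and 4.27% lower with the inhibitor. The 1 called gene of 9 sensors, or of the 6 genes that follow, is to be read beside these shares. Of 6 ESCRT genes of membrane repair, *Chmp3* fell with LPS by 0.54 (difference −0.54, adjusted p = 0.0152) and *Vps4b* rose with the inhibitor by 0.49 (adjusted p = 0.0296). These calls stood in 9 and 6 of 15 other settings, and the values shrank to −0.188 and 0.278 with 75th percentile scaling (adjusted p = 0.187 and 0.159).

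**Figure D4:**
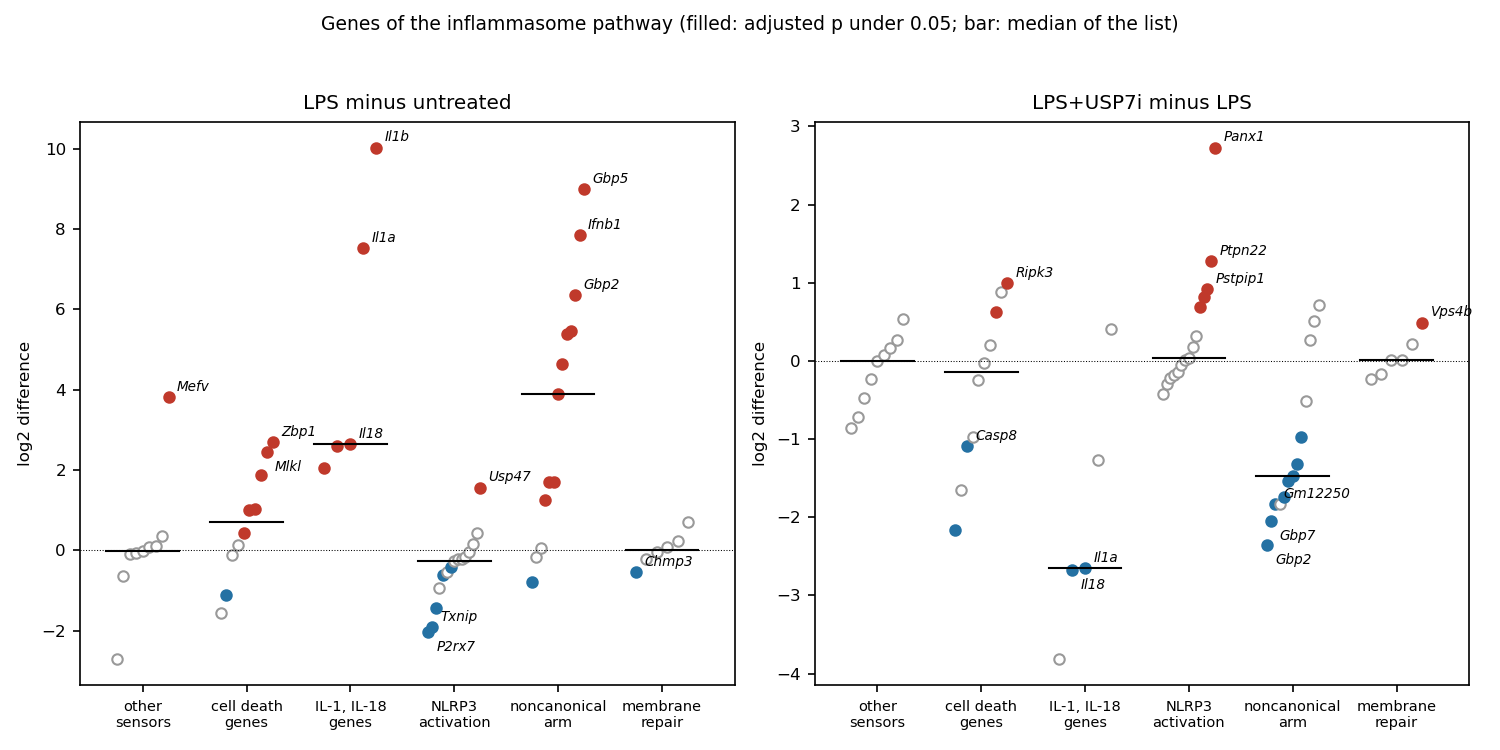
Log2 difference (vertical axis) of each gene of 6 lists around the inflammasome for LPS minus untreated (left) and LPS+USP7i minus LPS (right), 2 arrays per group; each point is a gene, filled red or blue where called higher or lower, names mark up to 3 called genes a list, and the bar is the list median. *Il1a* is drawn at its fitted value although it has only a bound in untreated cells, and the noncanonical arm had medians of 3.90 and −1.47 and the NLRP3 activation genes of −0.27 and 0.032.

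These list counts moved with single arrays as the members' counts did. Without untreated replicate 1 or 2 or LPS replicate 1 or 2, 0 of the 13 genes of the noncanonical arm were called lower with the inhibitor (limma), where without an untreated array 0 genes of the whole array were (limma; at least 3673 at an unadjusted p under 0.05). With each array left out *Gbp2* stayed between −2.776 and −1.936 and *Gbp7* between −2.352 and −1.753. Over all settings this count was between 0 and 10, whereas the LPS-induced count of that list stayed between 8 and 11. With LPS, 1 to 6 of the cell death genes and 3 to 5 of the cytokine genes were called higher and 1 to 7 of the NLRP3 activation genes lower. With the inhibitor, 0 to 5 of the NLRP3 activation genes were called higher, 0 to 4 of the cytokine genes lower, and 0 to 2 of the cell death genes higher and 0 to 4 lower. *Panx1* and *Il18* kept an adjusted p under 0.05 for the inhibitor in 10 of 15 other settings and *Gbp2* in 7.

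The 6-array profiles nearest to each member, by Euclidean distance between profiles centred on their own means, were sought among 11656 named genes well above background on all arrays. For *Nlrp3* they were *Tnfaip3* (distance 0.548), *Plagl1* (0.628), and *Pde4b* (0.702). For *Aim2* they were *3110009E18Rik* (0.181), *Plscr1* (0.391), and *Nck1* (0.396), and for *Gsdmd* they were *Cxcl16* (0.135), *Oas3* (0.165), and *Psmb8* (0.183). *Casp4* lay closest to *Daxx* (0.308), *Dcp2* (0.409), and *Tent4a* (0.434), and *Casp1* to *Cox6b2* (0.141), *Gmeb2* (0.175), and *Abi1* (0.178). *Pycard* lay closest to *Ddx17* (0.181), *Nemp1* (0.218), and *Sorl1* (0.270), *Nlrp1b* to *Mast3* (0.214), *Casp9* (0.286), and *Bola1* (0.318), and *Nlrc4* to *Phc1* (0.158), *Ank2* (0.173), and *Lypd2* (0.188). These distances describe 6 arrays and were not tested.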

How the data were processed

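Cy3-labeled RNA of the 6 samples was measured on single-color Agilent mouse arrays of 1 slide, in 1 scan. Per the file headers, the deposited scanner files hold the intensity of each spot after background correction by the scanner software. The authors' deposited series table holds log2 values, with array medians between 5.07 and 5.10 and no centring of genes, whose background correction is not given in the sources used here. The slide column differed by treatment and the slide row by replicate number, so column and treatment cannot be told apart, nor row and replicate number. Here the log2 processed signals of 59305 non-control spots were quantile-normalized, 119 to 172 outlier-flagged spots per array were left out, and spots of a probe were averaged. On each array 25002 to 27467 spots were well above background and 0 were saturated. As in the study's methods, linear models were used, in limma 3.58.1 (R 4.3.3) with all 6 arrays, Benjamini-Hochberg adjustment over 55680 probes, and a fit that had been tested on simulated data. Probes were named through RefSeq (GRCm38.p6), 26762 by accession, 3819 by symbol, and 639 by synonym, and 24461 kept the name in the file. With 2 arrays against 2 the smallest two-sided p of an exact permutation test is 0.333, so none was run. The members and lists were chosen with earlier results of these data known. The named genes are all members, the called genes with the 3 largest differences of each list with LPS and with the inhibitor, except 1 that is not named, *Il1b*, *Il18*, *Nek7*, *Usp7*, *Irf2*, and the 3 nearest profiles of each member, and any others were chosen after their values were seen. Alternatives were 75th percentile scaling, normexp background correction, the deposited normalized values, a filter on dim probes, fits of 2 groups, a trended prior, a replicate block, inclusion of flagged spots, the mean of a gene's probes, and each array left out.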

Additional observations from a re-analysis of the deposited data

How the results depend on the processing

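Under 16 alternatives, 15 of them planned, the members' differences gave 384 values, of which 321 kept their direction and their side of the threshold, 46 lost the call, 12 gained it, and 5 changed sign. The rises of *Nlrp3*, *Casp1*, and *Casp4* with LPS were called in 16 of 16, that of *Aim2* in 12 and that of *Gsdmd* in 10. The decreases with the inhibitor were called in 9 of 16 for *Aim2*, 10 for *Pycard*, and 9 for *Gsdmd*, with adjusted p values from 0.00499 to 0.161, 0.00179 to 0.103, and 0.00414 to 0.115, and *Casp4*, not called in the text, was called lower in 6. Named list genes gave 621 values, of which 472 kept both, 135 lost the call, 10 gained it, and 4 changed sign.

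Members called lower with the inhibitor compared with LPS numbered 5 with normexp correction, 5 with dim probes left out, where fewer probes were tested, and 0 with 2 groups in the fit (limma; 5 at an unadjusted p under 0.05), which has fewer arrays. Members called higher numbered 1 with dim probes left out, with the mean of a gene's probes, and with the dimmest probe of a gene, the last chosen after seeing the data. Compared with untreated cells, 1 was lower with LPS+USP7i in the fit of 2 groups and 1 with the dimmest probe. With each array left out in turn, where the lone array of a group is assumed to vary like the others, 3 to 4 members were higher and 0 to 1 lower with LPS, 0 to 3 were lower with the inhibitor compared with LPS, and 0 to 2 compared with untreated cells.

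With the replicate number as a block, 1 member (*Gsdmd*) was called lower with the inhibitor in place of 3, and the members called in each direction of the other comparisons were the same genes. The labels do not say what a number stands for, it also sets the slide row, and deviations of same-numbered arrays from their group means correlated with r = 0.468, 0.398, and 0.422 over 20721 probes, which are not independent.

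With 75th percentile scaling, *Pycard* with LPS turned to 0.438, *Nek7* to 0.103, and *Gsdmd* in LPS+USP7i minus untreated to 0.101, where that scaling moves the median gene up. With the mean of a gene's probes, *Usp7* with the inhibitor turned to 0.002, and *P2rx7* with LPS and *Gbp7* with the inhibitor, both called, shrank to −0.979 and −0.818. With normexp correction the dimmer *Nlrp3* and *Nlrp1b* probes with LPS shrank to 2.633 and −0.914 and *Il1a* to 4.525, all called. The difference of the dimmer *Nlrp1b* probe with the inhibitor shrank to 0.761, also called. These *Nlrp1b* and *Il1a* values lie below the bounds in the text, which hold for the main processing. With 1 array left out, *Nlrc4* with LPS lay between −0.179 and 0.112, *Usp7* with the inhibitor between −0.299 and 0.026, the dimmer *Nlrp3* probe with the inhibitor between −0.61 and 0.135, and *Aim2* in LPS+USP7i minus untreated between −0.202 and 0.665. None of the values that changed sign was called, and the cause of these changes was not tested.

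The genes called over the whole array numbered, with LPS, 1138 to 12150 higher (2775 in the text) and 1644 to 5318 lower (4443), with the inhibitor 0 to 2882 higher (1919) and 0 to 2375 lower (1485), and in LPS+USP7i minus untreated 474 to 12182 higher (2144) and 563 to 3995 lower (3031). The counts with the inhibitor were 0 with 2 groups in the fit and without untreated replicate 1 or 2 (limma; 4330 higher and at least 3673 lower at an unadjusted p under 0.05). The dimmer *Nlrp1b* probe was limited by background on both LPS arrays.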
